A study of Homo sapiens with 6 samples.

Results

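The genes described here were taken by symbol as those of heterogeneous nuclear ribonucleoproteins (hnRNPs) and core proteins of the spliceosome. They are all genes whose platform symbol begins with HNRNP, SNRP, SF3A, SF3B, PRPF, LSM or U2AF and that have at least 3 exon probesets naming that gene alone. Of 62 such symbols, 57 met the minimum, with 729 probesets, among 15417 genes tested. They comprise 16 hnRNP, 8 SNRP, 7 SF3, 3 U2AF, 12 PRPF and 11 LSM genes, and some of the LSM genes act outside the spliceosome. RNA came from WI38, a line of human diploid lung fibroblasts, and was hybridized to exon arrays in 3 groups of 2 arrays each. Cells of the first group received AS1, cells of the second received AS2, both phosphorothioate DNA antisense oligonucleotides against the nuclear noncoding RNA MALAT1, and the third group (Ctr) received a control oligonucleotide. Every group was transfected 2 times, 24 h apart, at 100 nM, so all 3 groups share the transfection. The labels do not say whether the 2 arrays of a group came from separate cultures, so p-values measure the spread between these arrays, which may be technical. In bulk RNA, fewer cells of a type and less RNA per cell cannot be told apart.

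An hnRNP protein coats nascent transcripts and can favour or block the use of a splice site. The small nuclear ribonucleoproteins (snRNPs) are the spliceosome's RNA-protein particles: U1 recognizes the 5′ splice site, U2 pairs with the branch point with the help of the U2AF and SF3 proteins, and the U4/U6.U5 particle joins afterwards. Sm proteins form a ring on U1, U2, U4 and U5 RNA, and some of the related LSM proteins form a ring on U6 RNA. MALAT1 resides in nuclear speckles, where splicing factors are stored.

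The oligonucleotides that separate the groups are shown because every comparison below rests on them. AS1 has 20 bases with 50% G or C and AS2 has 20 bases with 30% G or C, and no capitals are used because no part was singled out.
AS1: gggagttacttgccaacttg
AS2: atggaggtatgacatataat

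Values are log2 RMA signals, probesets were averaged into 1 value per gene, and a change is a difference of log2 values between groups. A gene was called at an adjusted p under 0.05 (limma, Benjamini-Hochberg over all 15417 genes). MALAT1 measured 9.23 and 7.82 with AS1, 8.19 and 8.13 with AS2, and 12.00 and 11.97 in Ctr. The AS1 arrays differed between themselves, with an SD of 0.999, and both lay far below Ctr. MALAT1 was 12.5-fold lower in the mean of both oligonucleotides (log2 change -3.64 ± 0.29 SE, adjusted p = 1.85e-05, limma). The array medians lay between 7.34 and 7.36. The list mean of the 9 fibroblast markers was 10.45 to 10.84 on the AS1 and AS2 arrays and 11.00 to 11.16 on the Ctr arrays, and in the mean of both 3 of them fell and 0 rose. List means of epithelial, endothelial and leukocyte markers stayed at or below 6.29 on every array, with 1 of 6, 1 of 6 and 0 of 5 markers called higher and 1 endothelial marker called lower. The part of these marker shifts in the results was not tested.

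Of the 57 genes, 10 were called in the mean of AS1 and AS2 against Ctr (17.5%), against a background of 24.8% of all genes tested. Among them 4 rose (background 14.1%) and 6 fell (background 10.7%). The genes that fell were HNRNPAB, HNRNPA0, SNRPA, SNRPD1, SNRPB2 and SF3A2, and those that rose were U2AF1L4, PRPF38B, PRPF4 and PRPF3. One gene, HNRNPAB, changed by more than 2-fold, and 55 of the 57 changed by less than 1.5-fold. The median change was -0.04 over the 57 genes and -0.04 over all genes tested. All 4 oligonucleotide arrays lay below both Ctr arrays for 16 genes (background 20%) and above both for 8 genes (background 21.5%). The share of these genes that rose stands below its background and the share that fell is near its own, which is a description and not a test of the list. Fewer of these genes were called without any 1 of the AS2 or Ctr arrays, so the count depends on single arrays. Such a fit leaves 1 array in a group. The share over all genes was not computed for it, so a general loss of calls cannot be told apart from one in these genes.

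**Figure D1:**
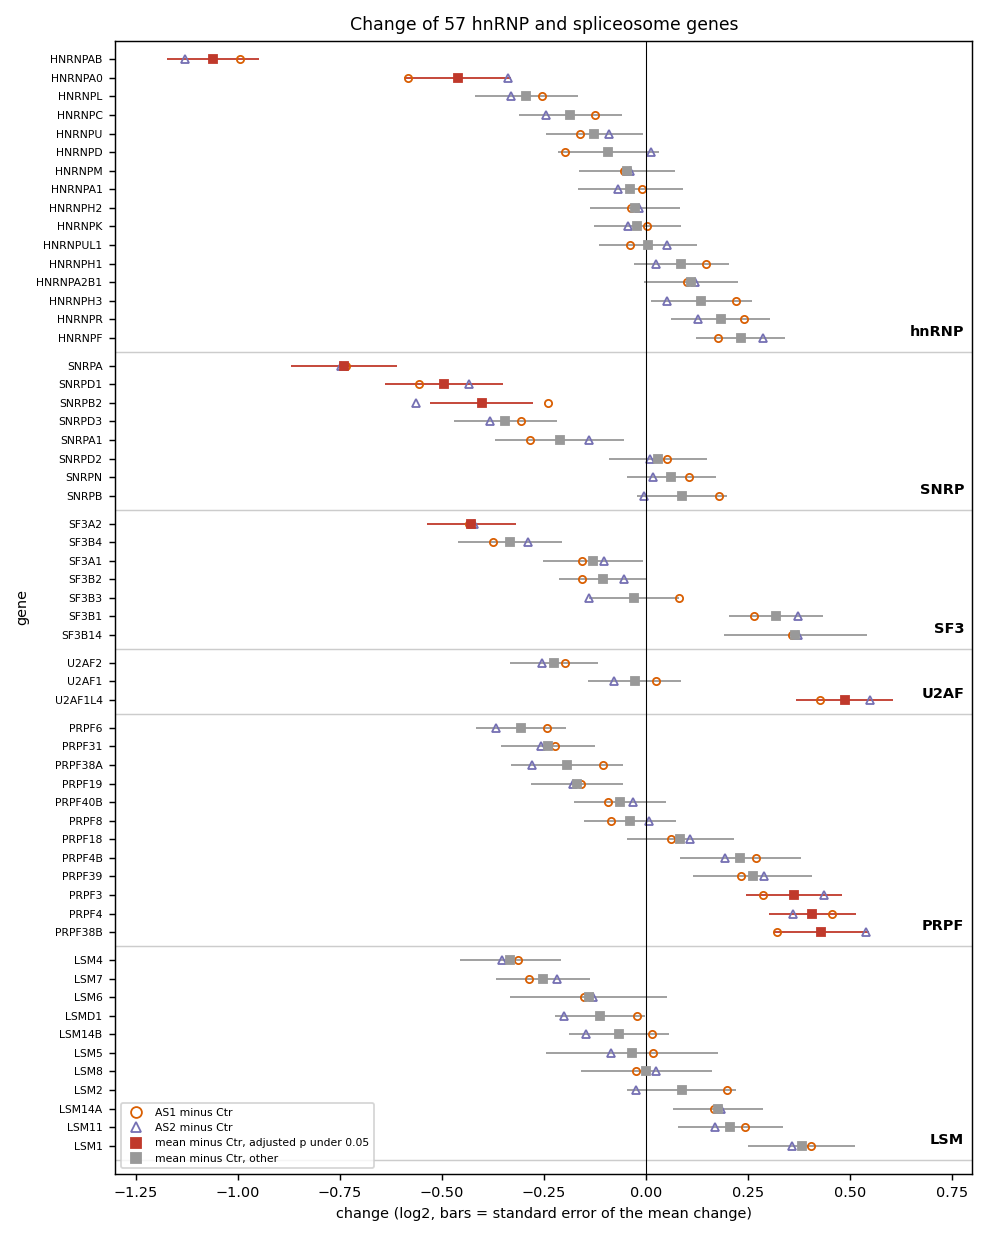
Change in log2 gene value for each of the 57 genes by class, as AS1 minus Ctr (circles), AS2 minus Ctr (triangles) and the mean of both minus Ctr (squares, with the standard error). HNRNPAB stands farthest left at -1.06, and the called genes on the right are U2AF1L4, PRPF38B, PRPF4 and PRPF3.

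With AS1 against Ctr, 6 of the 57 genes were called (background 20%). PRPF4 was the 1 that rose (background 11.8%), and HNRNPAB, HNRNPA0, SNRPA, SNRPD1 and SF3A2 were the 5 that fell (background 8.17%). With AS2 against Ctr, 7 were called (background 20.9%). U2AF1L4, PRPF38B and PRPF3 were the 3 that rose (background 11.6%), and HNRNPAB, SNRPA, SNRPB2 and SF3A2 were the 4 that fell (background 9.29%). Both contrasts use the same Ctr arrays. Called with each oligonucleotide in the same direction were HNRNPAB, SNRPA and SF3A2, so 3 fell (background 6.34%) and 0 rose (background 8.53%). The difference between the oligonucleotides was tested on its own, and 0 of the 57 genes were called in AS2 against AS1 (background 1.08%). At an unadjusted p under 0.05 in limma stood 1447 of all 15417 genes and 1 of the 57. That gene was SNRPB2, a protein of the U2 snRNP, at -0.32 ± 0.15 for AS2 minus AS1 (adjusted p = 0.528). A call with 1 oligonucleotide alone therefore did not come with a called difference between them. Fewer were called with AS1 whichever 1 of the 6 arrays was left out. With AS2 fewer were called without any 1 of the AS2 or Ctr arrays, and with both fewer without any array except AS1 replicate 1. These fits leave 1 array in a group, and their share over all genes was not computed.

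HNRNPAB, a protein of the hnRNP A/B family that binds RNA and single-stranded DNA, fell most. Its value was 9.93 and 9.96 with AS1, 9.89 and 9.73 with AS2, and 10.89 and 11.00 in Ctr. All 4 oligonucleotide arrays lay below the lower Ctr array, by a gap wider than any gap within a group. The change in the mean was -1.06 ± 0.11 SE, 2.09-fold lower (adjusted p = 0.000108, limma), at -0.99 with AS1 and -1.13 with AS2. The call held without each of the 6 arrays in turn. HNRNPA0, an hnRNP that binds AU-rich elements of mRNAs, was the other called gene of this class. It measured 9.45 and 9.22 with AS1, 9.62 and 9.54 with AS2, and 9.75 and 10.09 in Ctr. No oligonucleotide array reached a Ctr array, but the Ctr arrays differed by 0.34 between themselves. HNRNPA0 changed by -0.46 ± 0.13 (adjusted p = 0.0260, limma), with a call under AS1 (adjusted p = 0.0212) and none under AS2 (adjusted p = 0.157). Its call in the mean was lost without Ctr replicate 2 or either AS2 array, up to an adjusted p of 0.245.

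The other 14 hnRNP genes were not called, with changes from -0.29 to 0.23 and 95% confidence intervals that together span -0.57 to 0.47. The lowest of them was HNRNPL, which binds CA-rich RNA, and the highest was HNRNPF, which binds G-rich RNA. HNRNPF measured 9.23 and 9.21 with AS1, 9.31 and 9.35 with AS2, and 8.98 and 9.11 in Ctr. All 4 oligonucleotide arrays lay above both Ctr arrays, yet its change of 0.23 ± 0.11 had an adjusted p of 0.161. HNRNPK, a poly(C)-binding protein, had the values 10.84 and 10.85 with AS1, 10.76 and 10.83 with AS2, and 10.81 and 10.87 in Ctr. These groups overlapped, and its change of -0.02 has a 95% interval of -0.26 to 0.22. HNRNPA2B1, an abundant binder of RNA export and stability elements, changed by 0.11 (adjusted p = 0.560), and HNRNPC, a binder of U-rich RNA, by -0.18 (adjusted p = 0.352). HNRNPA1 is uncertain: 5 further probesets also name its retrogene copies and were left out, and the remaining 5 gave -0.04 (adjusted p = 0.867).

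SNRP genes encode Sm ring proteins and proteins of the U1 and U2 particles. In the mean 3 of 8 fell (background 10.7%) and 0 rose (background 14.1%). SNRPA, the A protein of the U1 snRNP, measured 9.11 and 8.85 with AS1, 9.04 and 8.90 with AS2, and 9.58 and 9.85 in Ctr. Every oligonucleotide array was lower than both Ctr arrays. The change was -0.74 ± 0.13, 1.67-fold lower (adjusted p = 0.00208, limma), at -0.73 with AS1 and -0.75 with AS2, and the call held without each array in turn, at an adjusted p of at most 0.0184. Of its 10 probesets 9 were lower. SNRPD1, an Sm ring protein, measured 7.85 and 7.50 with AS1, 7.67 and 7.92 with AS2, and 8.08 and 8.38 in Ctr. These groups do not overlap, and the change was -0.49 ± 0.15 (adjusted p = 0.0296, limma). It was called with AS1 (adjusted p = 0.0400) and not with AS2 (adjusted p = 0.0993), and the call in the mean was lost without Ctr replicate 2 or either AS2 array, at up to 0.206. With the median of probesets as gene value the change was -0.15 (adjusted p = 0.697).

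SNRPB2, which encodes a U2 snRNP protein, measured 8.14 and 7.78 with AS1, 7.62 and 7.66 with AS2, and 8.22 and 8.19 in Ctr. AS1 replicate 1 lay close under the Ctr arrays and the other 3 oligonucleotide arrays lay well below. The change of -0.40 ± 0.13 had an adjusted p of 0.0394 (limma), and it lost its call without each array except AS1 replicate 1, at up to 0.150. Without its farthest probeset it was -0.26 (adjusted p = 0.185), and with the median of probesets it was -0.52 (adjusted p = 0.0749). SNRPD3, another Sm ring protein, changed by -0.34 (adjusted p = 0.0714), and SNRPA1, a protein of the U2 snRNP, by -0.21 (adjusted p = 0.400). SNRPB, which encodes the Sm proteins B and B', was the highest of the class. It measured 10.28 and 10.33 with AS1, 10.14 and 10.11 with AS2, and 10.05 and 10.20 in Ctr, and these groups overlapped. SNRPD2, also in the Sm ring, changed by 0.03 (adjusted p = 0.889). SNRPN, the imprinted paralogue of SNRPB, was dim at a mean of 3.09 with AS1 and 2.98 in Ctr, and 11 probesets it shares with SNURF were left out.

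The class median of the mean change was -0.03 for the 16 hnRNP genes and -0.28 for the 8 SNRP genes, a difference of 0.24 that was not tested because genes are not replicates. The difference was 0.22 with AS1 and 0.23 with AS2, which share their Ctr arrays. By array, the SNRP class mean was 7.46 and 7.34 with AS1, 7.34 and 7.34 with AS2, and 7.59 and 7.65 in Ctr. The hnRNP class mean was 9.82 and 9.74 with AS1, 9.74 and 9.81 with AS2, and 9.80 and 9.96 in Ctr. All 4 oligonucleotide arrays lay below both Ctr arrays for SNRP, while the hnRNP arrays overlapped with Ctr replicate 1. The Ctr arrays themselves differed in these genes: 45 of the 57 (78.9%) and 15 of the 16 hnRNP genes were higher on Ctr replicate 2, against 46.9% of all genes. The mean gap between the Ctr arrays was 0.12 over the 57 genes, 0.16 over the hnRNP genes and 0.06 over the SNRP genes, against -0.02 over all genes tested. Without Ctr replicate 1 the class difference was 0.091, and without Ctr replicate 2 it was 0.378, so its size depends on which control is read.

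**Figure D2:**
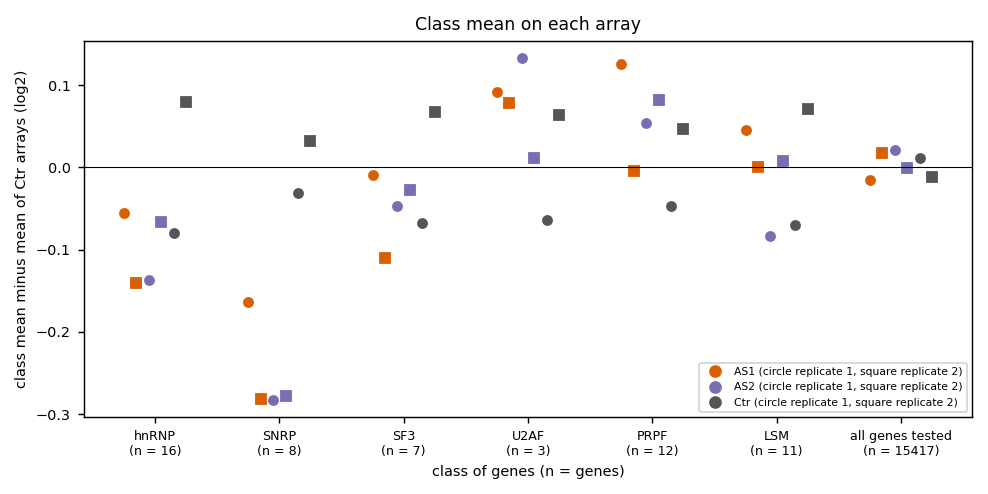
Class mean on each array minus the mean of the 2 Ctr arrays (log2), for the 6 classes and all genes tested, with circles for replicate 1 and squares for replicate 2. The SNRP class lies below both Ctr arrays on every AS1 and AS2 array, and Ctr replicate 2 lies above Ctr replicate 1 in all 6 classes.

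SF3 proteins belong to the U2 snRNP and hold it at the branch point. SF3A2, a subunit of the SF3A complex, measured 8.72 and 8.66 with AS1, 8.78 and 8.63 with AS2, and 9.12 and 9.12 in Ctr. The groups were well apart and all 11 of its probesets were lower. It fell by 0.43 ± 0.11 on the log2 scale (adjusted p = 0.0162, limma), at -0.43 with AS1 and -0.42 with AS2. Its call was lost without AS2 replicate 2 or either Ctr array, at up to 0.0811, and with the median of probesets (adjusted p = 0.0609). SF3B4, an SF3B subunit, had a like change of -0.33 over 3 probesets (adjusted p = 0.0844), while SF3B1, the scaffold of SF3B, had 0.32 (adjusted p = 0.0689). SF3B14, now named SF3B6 and the subunit next to the branch point adenosine, was the highest. It measured 9.73 and 9.54 with AS1, 9.37 and 9.92 with AS2, and 9.04 and 9.51 in Ctr. Its Ctr arrays were 0.46 apart and the groups overlapped, so its change of 0.37 ± 0.17 was not called (adjusted p = 0.170).

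Among the U2AF genes, U2AF2, the large subunit that binds the polypyrimidine tract, was the lowest. It measured 9.45 and 9.46 with AS1, 9.41 and 9.38 with AS2, and 9.61 and 9.69 in Ctr. All oligonucleotide arrays were lower, and the change of -0.23 ± 0.11 was not called (adjusted p = 0.167). U2AF1L4, a paralogue of the small subunit U2AF1, measured 7.35 and 7.38 with AS1, 7.62 and 7.36 with AS2, and 6.89 and 6.99 in Ctr. The groups do not overlap, and it rose by 0.49 ± 0.12, 1.40-fold (adjusted p = 0.0122, limma). Of its 8 probesets 7 were higher, and their median change was 0.41. Where the value of an array was instead the median of its probesets, the change was -0.04 (adjusted p = 0.911), and without its 1 farthest probeset it was 0.33 (adjusted p = 0.0848). It was also lost without Ctr replicate 1 (adjusted p = 0.0847).

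PRPF genes encode pre-mRNA processing factors, many of them in the U4/U6.U5 particle. In the mean 3 of 12 rose (background 14.1%) and 0 fell (background 10.7%). PRPF4 and PRPF3 are partners in the U4/U6 snRNP. PRPF4 measured 9.78 and 9.79 with AS1, 9.67 and 9.71 with AS2, and 9.30 and 9.37 in Ctr. The groups were well separated, all 15 probesets were higher, and PRPF4 rose by 0.41 ± 0.11 (adjusted p = 0.0177, limma), a call lost without AS2 replicate 2 or either Ctr array, at up to 0.129, and with the median of probesets (adjusted p = 0.0537). PRPF3 measured 10.13 and 9.87 with AS1, 10.14 and 10.16 with AS2, and 9.75 and 9.67 in Ctr. These groups do not overlap either, and the change was 0.36 ± 0.12 (adjusted p = 0.0464, limma). Without 1 of its 11 probesets, described below, it was 0.18 (adjusted p = 0.339), with the median of probesets it was 0.19 (adjusted p = 0.364), and the call was also lost without each array except AS1 replicate 2, at up to 0.205. PRPF31, another protein of U4/U6, had a change of -0.24 (adjusted p = 0.171), and PRPF6, which bridges U5 and U4/U6, was the lowest of the class. PRPF6 measured 8.38 and 8.42 with AS1, 8.22 and 8.33 with AS2, and 8.69 and 8.60 in Ctr. All oligonucleotide arrays and all 25 probesets were lower, at -0.31 ± 0.11 (adjusted p = 0.0670).

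PRPF38B, a relative of yeast Prp38, which acts in spliceosome activation, measured 8.91 and 8.67 with AS1, 8.97 and 9.05 with AS2, and 8.48 and 8.46 in Ctr. It rose by 0.43 ± 0.12 (adjusted p = 0.0202, limma), and the groups do not overlap. The call was lost without any 1 of the AS2 or Ctr arrays, at up to 0.0911. With the median of probesets the change was 0.25 (adjusted p = 0.253). PRPF8, the large U5 protein at the centre of the spliceosome, changed by -0.04 over 48 probesets, with a 95% interval of -0.29 to 0.21. In limma 0 of the 11 LSM genes were called in the mean (background 24.8%). An unadjusted p under 0.05 was found for 2 of the 11, against 5366 of all 15417 genes. LSM4, in the U6 ring, was the lowest, with 9.37 and 9.65 with AS1, 9.55 and 9.39 with AS2, and 9.87 and 9.77 in Ctr. LSM1, which replaces LSM8 in the cytoplasmic ring of mRNA decay, was the highest, with 9.36 and 9.46 with AS1, 9.19 and 9.54 with AS2, and 8.91 and 9.10 in Ctr. Neither overlapped with Ctr, at -0.33 (adjusted p = 0.0767) for LSM4 and 0.38 (adjusted p = 0.0578) for LSM1. LSM5, LSM6 and LSM8, all of the U6 ring, had Ctr arrays 0.64, 0.57 and 0.47 apart. LSMD1, now named NAA38, entered by its symbol and is a subunit of an N-terminal acetyltransferase. It changed by -0.11 (adjusted p = 0.534).

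**Figure D3:**
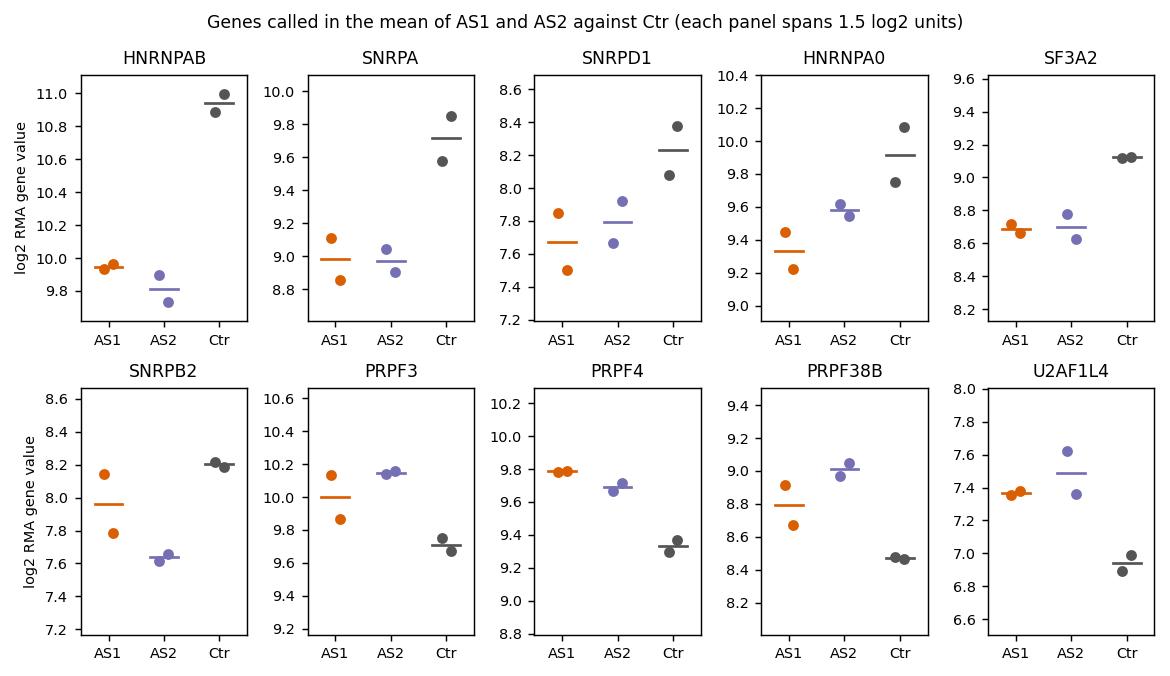
Log2 RMA gene value on each array for the 10 genes called in the mean of AS1 and AS2 against Ctr, with points for arrays and bars for group means. In all 10 panels the AS1 and AS2 arrays lie on 1 side of both Ctr arrays, with SNRPB2 on AS1 replicate 1 closest to them. The genes were picked by their call in this same contrast, so the separation gives no separate support.

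Genes with 1 or 2 probesets of their own were left out of the tests. They are LSM10, SF3A3, SF3B5, SNRPC and SNRPF, with differences in the mean from -0.29 for SF3B5 to 0.33 for LSM10.

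The 3 genes that fell with each oligonucleotide are shown with the 250 bases before their RefSeq start (GRCh38.p14, all on the plus strand), because they moved together. They lie on chr5:178204283-178204532 (HNRNPAB), chr19:40750953-40751202 (SNRPA) and chr19:2236574-2236823 (SF3A2). Capitals mark CCAAT, the letters of a common promoter element, searched on both strands. HNRNPAB has 2 matches, SNRPA has 1 and SF3A2 has 0.
HNRNPAB: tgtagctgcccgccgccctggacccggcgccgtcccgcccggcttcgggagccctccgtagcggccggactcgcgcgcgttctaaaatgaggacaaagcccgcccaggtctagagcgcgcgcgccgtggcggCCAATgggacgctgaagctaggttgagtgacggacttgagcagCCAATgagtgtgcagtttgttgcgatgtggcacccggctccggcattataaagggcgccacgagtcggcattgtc
SNRPA: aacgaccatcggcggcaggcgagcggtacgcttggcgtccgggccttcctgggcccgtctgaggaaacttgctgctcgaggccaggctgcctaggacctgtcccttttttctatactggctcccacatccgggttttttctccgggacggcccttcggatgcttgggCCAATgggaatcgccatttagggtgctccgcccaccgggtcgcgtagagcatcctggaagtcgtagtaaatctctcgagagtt
SF3A2: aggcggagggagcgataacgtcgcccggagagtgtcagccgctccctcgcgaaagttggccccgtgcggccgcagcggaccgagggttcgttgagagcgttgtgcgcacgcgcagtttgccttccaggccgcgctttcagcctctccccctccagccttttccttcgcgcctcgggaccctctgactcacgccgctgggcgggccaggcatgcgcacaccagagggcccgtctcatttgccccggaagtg

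The promoter table held 49 of the 57 genes. On either strand, CCAAT was in 24 of these 49 windows (49%), against 32% of all 35116 windows of the same length, noncoding genes included. The ETS factor core CCGGAAG was in 16 of the 49 (32.7%) against 8.52% of all windows. The letters GCATGCG, part of the NRF1 element, were in 4 of the 49 (8.16%) against 3.39% of all windows. They were chosen after a longer form of that element had been searched, which is not reported here. Of the windows printed above, that of SF3A2 holds CCGGAAG and GCATGCG, which are not marked there. None of these patterns contains another, a match is only these letters in this window, and no binding was measured here.

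Exon arrays also show whether the probesets of a gene change unequally, and limma's diffSplice F test could be run on 50 of the 57 genes to ask this. Too dim or with too few bright probesets for this test were LSM2, LSM7, LSM8, LSM11, PRPF40B, SNRPA1 and SNRPN. Unequal changes were called for 14 of the 50 in the mean of both oligonucleotides, against a background of 30.4% of 9431 genes. They were called for 16 with AS1 (background 29%), for 9 with AS2 (background 17.6%), and for 0 in AS2 against AS1 (background 0.912%). In AS2 against AS1, 4 of the 50 had an unadjusted p under 0.05, against 483 of all 9431 genes. Called with AS1 and also with AS2 were 7 genes, a count whose share over all genes was not computed. These 2 contrasts share their Ctr arrays. By class, 7 of 16 hnRNP genes and 0 of 6 SNRP genes were called in the mean, where the background was 30.4%. SNRPD1 and SNRPA were close to a call (adjusted p = 0.0585 and 0.0670, diffSplice F test). SNRPB2 was called with AS2 (adjusted p = 0.0266, diffSplice F test). The SNRP genes entered with 4 to 12 probesets and the hnRNP genes with 3 to 24, so the class counts are not a like comparison. Leaving out Ctr replicate 1 gave 4 calls, where the background was 11.4%, and leaving out AS2 replicate 2 gave 9, where it was 17.2%.

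HNRNPAB fell unevenly. Its probeset 2843623 measured 12.40 and 12.53 with AS1, 12.07 and 12.37 with AS2, and 12.16 and 12.03 in Ctr, a change of 0.25, while its 6 other probesets changed by -0.41 to -1.89. That probeset stood 1.53 above the others (adjusted p = 3.54e-07, diffSplice t test, F test 6.71e-08), so the fall of HNRNPAB did not include all its probesets. The probeset with the largest fall, 2843636, measured 10.04 and 9.74 with AS1, 10.22 and 9.84 with AS2, and 11.82 and 11.88 in Ctr.

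In PRPF3, probeset 2358209 measured 6.69 and 6.38 with AS1, 6.04 and 6.51 with AS2, and 4.33 and 4.02 in Ctr. All 4 oligonucleotide arrays were far above both Ctr arrays, where this probeset was dim. It rose by 2.23, while the other 10 probesets changed by 0.02 to 0.34 (F test adjusted p = 4.60e-10). U2AF1L4 had the same form: probeset 3859938 measured 6.48 and 5.51 with AS1, 5.99 and 6.18 with AS2, and 4.35 and 4.60 in Ctr. Its change was 1.57 against -0.11 to 0.71 for the 6 others (F test adjusted p = 0.000691). The test kept probesets by their mean over all arrays, with a cut of 5.44. Both of these probesets lay below that cut on the Ctr arrays and above it on the oligonucleotide arrays. They entered the test through the groups where they are high, so these F tests give no separate support for their rise.

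In PRPF31, probeset 3841232 measured 6.97 and 6.81 with AS1, 7.46 and 7.11 with AS2, and 5.97 and 6.33 in Ctr. It rose by 0.94 while 13 of the 15 other probesets were lower (F test adjusted p = 2.40e-05). In HNRNPF, whose protein binds G-rich RNA, the first 2 probesets, 3286287 and 3286288, changed by 0.93 and 0.90. The last 10 changed by -0.09 to 0.39 (F test adjusted p = 0.000168). Probeset 3286288 measured 6.14 and 6.18 with AS1, 6.49 and 6.50 with AS2, and 5.05 and 5.80 in Ctr. It lay below the brightness cut of 5.44 on Ctr replicate 1 and above it on every oligonucleotide array. Its entry into the test thus leaned on the groups where it is high, so the F test gives no separate support for its rise. In HNRNPH3, a relative of HNRNPF, probeset 3249771 measured 8.51 and 7.58 with AS1, 6.89 and 6.80 with AS2, and 5.92 and 5.59 in Ctr. It was higher on every oligonucleotide array, at 1.69, against -0.34 to 0.47 for its 12 others (F test adjusted p = 8.14e-05).

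**Figure D4:**
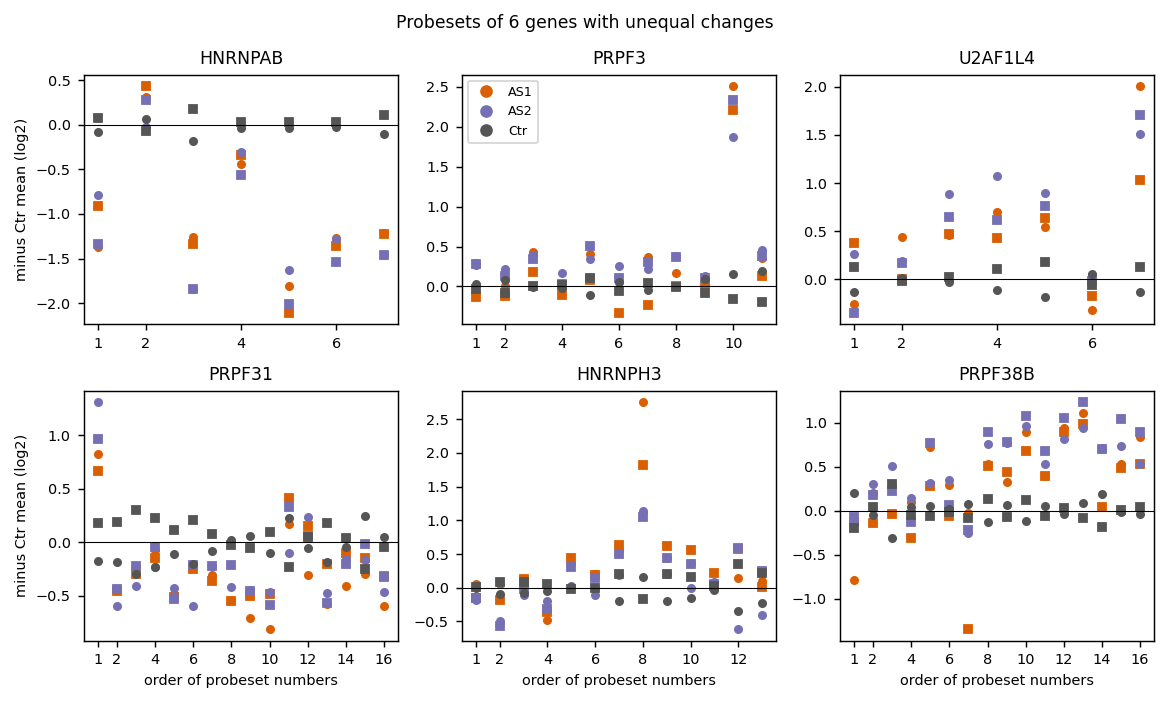
Probeset value minus the mean of the 2 Ctr arrays (log2), in the order of probeset numbers, for 6 genes called by the F test, with circles for replicate 1 and squares for replicate 2. HNRNPAB has 1 probeset near 0 among falls, PRPF3 and U2AF1L4 have 1 high probeset, and PRPF38B is higher from the eighth probeset on.

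PRPF38B and HNRNPU changed along the order of their probesets, a split chosen after the values were seen and not tested. The first 7 probesets of PRPF38B changed by -0.46 to 0.52, and the last 9 by 0.50 to 1.07 (F test of the gene, adjusted p = 0.000122). Its probeset of smallest p, 2350298, measured 7.91 and 6.58 with AS1, 7.68 and 7.72 with AS2, and 8.01 and 7.85 in Ctr, so AS1 replicate 2 is the array that stands low. In HNRNPU, a nuclear matrix and chromatin-associated RNA-binding protein, the first 12 probesets changed by -0.34 to 0.63 and the last 7 by -0.92 to -0.02 (F test adjusted p = 0.000313). The last probeset, 2464556, was its probeset of smallest p, at -0.92. The gene value of HNRNPU changed by only -0.13 (adjusted p = 0.518), with both directions inside it.

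Another 6 genes passed the F test in the mean. In SF3B2, an SF3B subunit, probeset 3335920 fell by 0.84 on the log2 scale against -0.42 to 0.25 elsewhere in the gene. In HNRNPA2B1, probeset 3042436 changed by -0.46. Probesets that were higher led in the rest: 3819597 in HNRNPM (0.73), 2593695 in SF3B1 (0.82), 3829625 in LSM14A (0.84), which acts in mRNA silencing and P-bodies, and 2401321 in HNRNPR (0.86). Over all 14 genes the leading probeset stood above its gene in 10 and below it in 4. The 10 include the probesets of PRPF3 and U2AF1L4 that lay below the brightness cut in Ctr. HNRNPD, SF3A1 and SF3B3 passed the F test with AS1 but not in the mean. SNRPB2 passed with AS2 but not in the mean.

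The wider machinery was read from lists of genes outside these prefixes, with the same background of 14.1% higher and 10.7% lower. Of 23 measured related hnRNP and RNA-binding proteins, 5 fell and 0 rose. PCBP3 and PCBP4, poly(C)-binding proteins, changed by -0.73 and -0.48, PTBP1, the polypyrimidine tract repressor of splicing, by -0.52, and EWSR1, an RNA-binding protein of the FET family, by -0.44. Of 55 measured other spliceosome proteins, 8 rose and 2 fell. TXNL4B, a relative of a U5 protein, rose by 1.31, SNRNP48, of the minor spliceosome, by 0.97, FNBP4 by 0.95 and SYF2, of the catalytic spliceosome, by 0.93. Of 19 measured snRNP assembly, cap and import factors, 1 rose and 2 fell. WDR77, of the methylosome that modifies Sm proteins, fell by 0.59 on the log2 scale, DDX20 of the SMN complex rose by 0.51, and SIP1 fell by 0.39 on the log2 scale. The medians were -0.15, 0.08 and 0.06 for the 3 lists, against -0.04 for the 57 genes and -0.04 for all genes tested.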

How the data were processed

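WI38 RNA (100 ng per sample) was measured on Affymetrix Human Exon 1.0 ST arrays, 2 each with AS1, AS2 and Ctr as titled by the submitters. Log2 values for 232479 probesets were deposited, made by the authors with RMA in Partek (versions are not given). The small number of arrays limits precision. Platform symbols can be old: 54 of the 57 are current and 3 are synonyms. Probeset positions and the build of the platform were not used. Promoters came from RefSeq (GRCh38.p14), and the oligonucleotide sequences from the supplementary tables of the study.

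Gene values are means of probesets naming 1 gene, with at least 3. A limma 3.58.1 model (R 4.3.3) was fitted to all 6 arrays and 3 groups (3 residual and 7.45 prior degrees of freedom). Unequal probeset changes were tested with diffSplice on probesets no dimmer than the 25th percentile, in genes with at least 3 of these and a mean at or above the 50th percentile of gene means. Both were tested on simulated data. Per-array values are given for called genes and for the highest and lowest of each class. Probesets are named for every gene past the F test in the mean of AS1 and AS2. HNRNPK, PRPF8 and the second probesets of HNRNPAB and HNRNPF were named after their values were seen. The genes and lists were chosen with earlier results of these data known. Alternatives were other gene summaries, filters, normalizations, models and thresholds, a replicate block, each array left out and, added after the data were seen, each gene without its farthest probeset.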

Additional observations from a re-analysis of the deposited data

How the results depend on the processing

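With 2 arrays per group, counts depend on the model. The calls in the mean, with AS1, with AS2 and with both numbered 17, 10, 16 and 9 with limma trend and robust, 3, 3, 3 and 2 with the median of probesets, 2, 0, 1 and 0 with the ANOVA without moderation, and 1, 0, 1 and 0 at the methods' threshold of more than 2-fold and an unadjusted p under 0.001. Where only brighter genes were tested, 5 were called with both, and AS1 gave 2 calls when only the groups compared were fitted. Brighter probesets, quantile normalization and centring left the counts within 1.5 times. Leaving out each array in turn gave 3 to 13 calls in the mean, 2 to 4 with AS1, 2 to 8 with AS2, 1 to 3 with both, a class difference of 0.091 to 0.378, and 4 to 14 genes with unequal probeset changes. AS2 against AS1 gave 0 throughout. The class difference was 0.129 with the median of probesets, 0.387 with brighter probesets, 0.340 with brighter genes and 0.323 with genes of at least 6 probesets. Unequal changes numbered 7 of 46 above the 50th percentile of brightness (background 26.5%). U2AF1L4 reversed to -0.035 with the median of probesets, and HNRNPAB was called under all 16 alternatives. In the mean, all-gene shares of calls were 29.9% with trend and robust, 18.3% with the median of probesets and 6.69% with the ANOVA, against 24.8%. Under these alternatives such shares were not computed for AS1, AS2 or both, nor at the methods' threshold. There a general change in calls cannot be told apart from one in these genes. The causes were not tested.

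Deviations of same-numbered arrays correlated at -0.343 for AS1 and AS2, -0.509 for AS1 and Ctr, and 0.392 for AS2 and Ctr. The signs are mixed, so the numbers do not pair all groups in the same way. Arrays of different groups still shared part of their deviations, which the main fit does not model. The cause was not tested. With the replicate block, 6 genes were called in the mean, 3 with AS1, 5 with AS2, 2 with both and 0 in AS2 against AS1, and 11 of 50 had unequal probeset changes (backgrounds 20.4% in the mean and 25.7% for unequal changes). HNRNPA0, PRPF3, SNRPB2 and SNRPD1 lost their call in the mean.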
